A study of Homo sapiens with 12 samples.

Results

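The 10 genes described here encode the cyclins and cyclin-dependent kinases (CDKs) that drive the cell division cycle. They were chosen by symbol from 38716 gene symbols in the tables. They comprise 3 D-type cyclins (CCND1, CCND2 and CCND3), 4 cyclins of the E, A and B types (CCNE1, CCNE2, CCNA2 and CCNB1) and 3 kinases (CDK1, CDK2 and CDK4).

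A CDK has little activity without a cyclin, and cyclins come and go through the cycle. D-type cyclins rise on growth factor signalling in G1 and bind CDK4 or CDK6, which phosphorylate RB and release E2F transcription factors. E-type cyclins then bind CDK2 for entry into S phase, cyclin A2 binds CDK2 and CDK1 during S and G2, and cyclin B1 binds CDK1 for mitosis. Senescent fibroblasts have left the cycle for good, and high cyclin D1 in arrested cells is a long-known feature of them.

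Ribo-seq, which counts the mRNA fragments that ribosomes protect from nuclease (RPF), and RNA-seq after poly(A) enrichment were performed on IMR90 cells, fibroblasts of normal human lung that divide a limited number of times. The Pro group was dividing, and the Sen group had been passaged without a break until division ceased (replicative senescence), with no genetic change and no drug named for any group. Each state had 3 independent lysates, and each lysate gave 1 library of each type, which makes 12 libraries. All cells grew in serum-supplemented MEM and were lysed in buffer with cycloheximide, which holds ribosomes on mRNA. The labels name 2 isolates of the line without tying them to samples, so isolate and state cannot be told apart. The RNA-seq tables of the Pro group carry a tag resembling a solvent name that no label mentions, and whether those cultures received solvent is not known.

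The mRNA level of a gene was the sum of its RNA-seq reads in the 5′ UTR, coding sequence (CDS) and 3′ UTR, and its RPF level was its Ribo-seq reads in the CDS. Levels are in CPM (counts scaled to a common library size with TMM factors) and errors are SD over 3 libraries. RNA-seq libraries held 7902427 to 14144455 reads in these regions. Ribo-seq libraries held 54421 to 1718521 CDS reads, and Pro 1 and Sen 2 were the shallow ones, with 54421 and 54708. In these 2 libraries 3 reads, taken as the floor below which a level is not resolved, correspond to 55.1 and 54.8 CPM on unscaled totals. The CDS held 34.4%, 84.4% and 88.8% of assigned Ribo-seq reads in Pro and 77.8%, 15.0% and 54.7% in Sen. Of the reads in mRNA regions 10.2%, 3.70% and 2.78% lay in the 5′ UTR in Pro and 4.89%, 44.7% and 13.8% in Sen. Among the deeper libraries the CDS share was thus lower in senescent cells, and its part in the RPF and TE results was not tested. Markers of fibroblasts (6 of 6 with at least 10 reads in every RNA-seq library) summed to 26682 to 30246 CPM in Pro and 25465 to 28919 CPM in Sen. Epithelial and endothelial markers (4 each, with SFTPC and CDH5 at 0) summed to at most 1.71 and 1.03 CPM. Of 4 leukocyte markers 1 had at least 10 reads in every RNA-seq library, and CD3E was at 0. They summed to 19.1 to 21.2 CPM in Pro and 32.0 to 35.1 CPM in Sen, and their part in the results was not tested.

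All 10 genes passed the mRNA test of senescent against proliferating cells (edgeR quasi-likelihood, adjusted p under 0.15), in both directions. The 3 D-type cyclins and CCNE1 were higher, while CCNE2, CCNA2, CCNB1, CDK1, CDK2 and CDK4 were lower. Of all 12787 genes tested, 73.6% passed, 36.6% as higher and 37% as lower, so calls were common among all genes. For all 10 the 3 senescent libraries lay apart from the 3 proliferating ones, as they did for 67.8% of tested genes. The median log2 fold change was 2.16 over the D-type cyclins, -0.92 over the E, A and B cyclins and -1.06 over the kinases, against -0.01 over all tested genes. In bulk RNA, fewer cells in a given phase of the cycle and less mRNA per cell cannot be told apart.

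In the Ribo-seq libraries 8 of the 10 genes had enough reads for a test, and 7 passed it. CCND1, CCND2 and CCND3 were higher and CCNA2, CCNB1, CDK1 and CDK4 lower. CCNE1 and CCNE2 were not tested, and CDK2 was not called. Of 7521 genes tested for RPF, 54.4% passed, 27.5% as higher and 26.9% as lower, and groups did not overlap for 32.5%. Higher genes made up 50.5% of these calls, and 39.5% when libraries were scaled by their totals without TMM factors, while the same number of members (7) was called. They did not overlap for the same 7 members. The 7 calls also stood in the 4 deeper libraries alone, without Pro 1 and Sen 2.

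**Figure D1:**
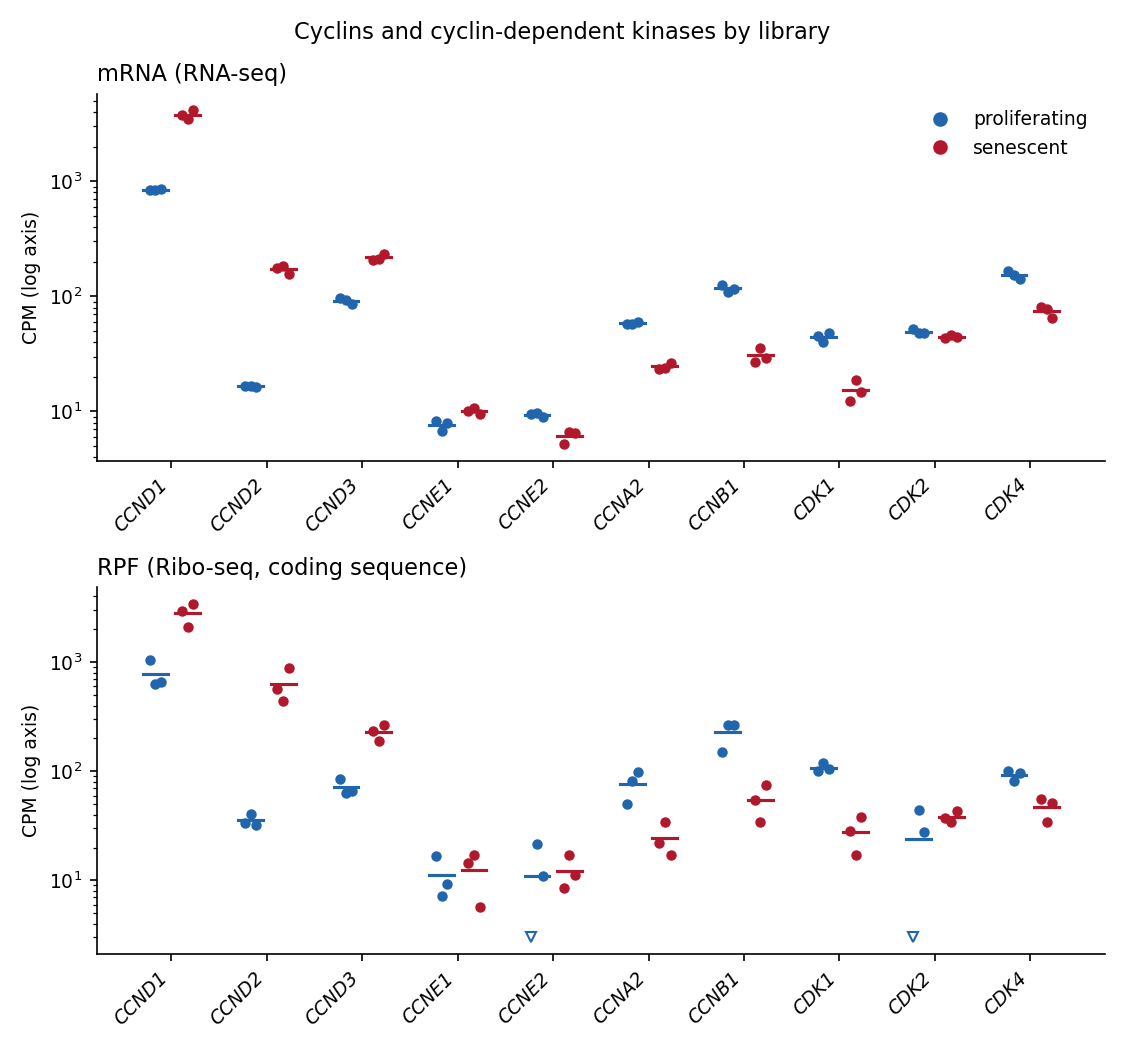
Level of each gene in each library, in CPM on a log axis, for mRNA (top) and RPF (bottom). Each dot is 1 library, bars are group means, and open triangles mark libraries with 0 reads of CCNE2 and CDK2 (Pro 1), which a log axis cannot show. D-type cyclins sit higher and CCNA2, CCNB1, CDK1 and CDK4 lower in senescent cells in both panels, whereas the RPF levels of CCNE1, CCNE2 and CDK2 overlap.

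CCND1 encodes cyclin D1, an activating partner of CDK4 and CDK6 (chromosome 11, 69455924 to 69469242, plus strand; GRCh37 annotation, as for all positions given here). Its mRNA stood at 838, 843 and 863 CPM in Pro 1, 2 and 3 and at 3738, 3496 and 4155 CPM in Sen 1, 2 and 3. RPF levels were 1044, 631 and 654 CPM in Pro and 2937, 2081 and 3434 CPM in Sen. Every senescent library exceeded every proliferating one in both layers, and the shallow libraries were the highest of Pro and the lowest of Sen in RPF. The mRNA mean rose from 848 ± 13.2 to 3797 ± 333 CPM, which is 2.16 ± 0.08 on the log2 scale (SE; edgeR adjusted p = 9.84e-16). RPF rose from 776 ± 232 to 2817 ± 684 CPM (2.03 ± 0.19; edgeR adjusted p = 9.69e-15). By RPF fold change CCND1 ranked 91 from the top of 7521 genes, and by mRNA 253 of 12787. LTO1 overlaps 1399 bases of CCND1 on the other strand and had 128 CDS and 654 3′ UTR reads over all 6 RNA-seq libraries, where CCND1 had 6872 to 47747 reads in each.

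CCND2 (cyclin D2; chromosome 12, 4378937 to 4414519, plus strand) showed the largest fold change of the 10 genes in both layers. Proliferating cells held little of its mRNA, with 16.7, 16.7 and 16.3 CPM, against 176, 184 and 156 CPM in senescent cells. RPF went from 33.7, 40.3 and 32.4 CPM in Pro to 567, 444 and 875 CPM in Sen. No library of one state came near those of the other, although the Pro 1 value rests on 2.5 reads and Pro 2 and Pro 3 on 28.5 and 56.5. The log2 fold change was 3.38 ± 0.09 for mRNA (edgeR adjusted p = 3.9e-18), a 10.4-fold rise of the mean. For RPF it was 4.26 ± 0.22 (edgeR adjusted p = 1.09e-28), a 17.7-fold rise of the mean, and 4.33 in the 4 deeper libraries. That placed CCND2 at rank 8 of 7521 genes from the top. The annotation also lays the non-coding antisense gene CCND2-AS1 across it. It had 0 reads in the CDS and 3′ UTR classes, which cannot show its level, since a non-coding gene has no such regions. Its reads in the non-coding classes were not looked up, and the strand rule of the counting is not known. A protein-coding gene without a symbol overlaps 31592 bases of CCND2 on the same strand and was not analysed here.

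CCND3 (cyclin D3; chromosome 6, 41902672 to 42018095, minus strand) moved in the same direction by a smaller amount. Its mRNA was 96.2, 92.6 and 86.0 CPM in Pro and 209, 211 and 234 CPM in Sen, a log2 fold change of 1.25 ± 0.08 (edgeR adjusted p = 3.15e-12). RPF levels were 84.2, 63.4 and 65.9 CPM in Pro and 235, 188 and 268 CPM in Sen (1.89 ± 0.18; edgeR adjusted p = 2.14e-14). States did not overlap in either layer.

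The E-type cyclins were scarce in both states and moved little. CCNE1 (cyclin E1; chromosome 19, 30302898 to 30315219, plus strand) had 8.29, 6.75 and 8.0 CPM of mRNA in Pro and 9.99, 10.7 and 9.59 CPM in Sen. Its log2 fold change was 0.41 ± 0.13 (edgeR adjusted p = 0.0103), which makes it the one member outside the D type that rose. CCNE2 (cyclin E2; chromosome 8, 95891998 to 95908906, minus strand) had 9.51, 9.65 and 8.93 CPM in Pro and 5.21, 6.66 and 6.48 CPM in Sen, and fell by 0.60 ± 0.14 on the log2 scale (edgeR adjusted p = 0.000783). The 2 paralogs thus changed in opposite directions in mRNA. INTS8 and NDUFAF6 overlap CCNE2 on the other strand. They had 1968 and 456 CDS reads over all RNA-seq libraries, where CCNE2 had 49 to 113 reads in each. Their part in the CCNE2 mRNA values was not tested. In Ribo-seq CCNE1 had 1, 5 and 16 CDS reads in Pro and 22, 1 and 3 in Sen, and CCNE2 had 0, 15 and 19 in Pro and 13, 1 and 6 in Sen. At these counts a difference in RPF of either gene was not detectable.

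Cyclin A2 and cyclin B1, the partners of CDK2 and CDK1 from S phase to mitosis, fell in both layers. CCNA2 (chromosome 4, 122737599 to 122745038, minus strand) had 57.8, 57.3 and 60.1 CPM of mRNA in Pro and 23.4, 23.9 and 26.6 CPM in Sen, a log2 fold change of -1.24 ± 0.08 (edgeR adjusted p = 2.19e-11). CCNB1 (chromosome 5, 68462962 to 68474072, plus strand) had 126, 109 and 116 CPM in Pro and 27.1, 35.4 and 29.4 CPM in Sen (-1.92 ± 0.09; edgeR adjusted p = 8.17e-14). Among the 10 genes CCNB1 fell furthest in mRNA, at rank 265 of 12787 from the lowest fold change. EXOSC9 overlaps the end of CCNA2 by 578 bases on the other strand. It had 1219 CDS reads over all RNA-seq libraries, where CCNA2 had 220 to 671 reads in each, and its part was not tested.

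RPF of CCNA2 was 50.5, 80.7 and 98.3 CPM in Pro and 22.1, 34.1 and 16.98 CPM in Sen (log2 fold change -2.09 ± 0.26; edgeR adjusted p = 2.87e-10). RPF of CCNB1 was 152, 264 and 266 CPM in Pro and 54.6, 34.1 and 75.5 CPM in Sen (-2.09 ± 0.19; edgeR adjusted p = 2.85e-15). For both genes the states were apart, with the shallow Pro 1 the lowest proliferating library. The Sen 2 values rest on 2 reads each, and the Pro 1 value of CCNA2 on 3. For CCNA2 the gap between the states lies between these 2 libraries, so its size is not resolved. Without Pro 1 and Sen 2 the fold changes of CCNA2 and CCNB1 were -2.14 and -2.11.

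CDK1, the mitotic kinase that cyclin B1 activates (chromosome 10, 62538089 to 62554610, plus strand), followed its partners. It had 45.4, 40.1 and 47.8 CPM of mRNA in Pro and 12.4, 18.6 and 14.9 CPM in Sen, a log2 fold change of -1.51 ± 0.12 (edgeR adjusted p = 1.56e-10). Its RPF was 101, 119.5 and 104 CPM in Pro and 28.6, 17.1 and 37.7 CPM in Sen (-1.83 ± 0.23; edgeR adjusted p = 3.45e-10), where Sen 2 rests on 1 read. The highest senescent library was below the lowest proliferating one in both layers.

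CDK2, the S phase kinase (chromosome 12, 56360565 to 56366573, plus strand), hardly changed. Its mRNA was 52.1, 48.4 and 47.8 CPM in Pro and 43.1, 45.8 and 44.7 CPM in Sen. The log2 fold change of -0.15 ± 0.08 passed the threshold by a small margin (edgeR adjusted p = 0.105), with a 95% interval of -0.30 to 0.01. It no longer passed with DESeq2 (adjusted p = 0.198) or without Pro 1, Pro 2 or Sen 1 (0.269, 0.154 and 0.237 by edgeR). RPF of CDK2 was 0, 44.6 and 27.8 CPM in Pro and 37.7, 34.1 and 43.4 CPM in Sen, with overlapping states. Its RPF log2 fold change of 0.28 was not called (95% interval -0.30 to 0.85; edgeR adjusted p = 0.463). PMEL overlaps CDK2 on the other strand and had 29 CDS reads over all 6 RNA-seq libraries.

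CDK4, the kinase of the D-type cyclins (chromosome 12, 58141510 to 58149796, minus strand), fell while its cyclins rose. Its mRNA was 167, 154 and 143 CPM in Pro and 80.6, 77.6 and 64.6 CPM in Sen, a log2 fold change of -1.06 ± 0.09 (edgeR adjusted p = 4.15e-10). Its RPF was 101, 82.1 and 96.0 CPM in Pro and 55.3, 34.1 and 50.9 CPM in Sen (-0.78 ± 0.21; edgeR adjusted p = 0.00172). The states did not overlap in either layer. The RPF call was lost with DESeq2 (adjusted p = 0.227), and Sen 2 holds 2 reads of this gene. CDK6, the other kinase of D-type cyclins, moved the opposite way. Its mRNA rose from 133 ± 15.1 to 381 ± 13.9 CPM (log2 fold change 1.52 ± 0.08; edgeR adjusted p = 3.92e-13) and its RPF from 55.2 ± 36.6 to 259 ± 26.5 CPM (1.78 ± 0.18; edgeR adjusted p = 3.5e-13). The Pro 1 RPF value of CDK6 (16.8 CPM) rests on 1 read.

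**Figure D2:**
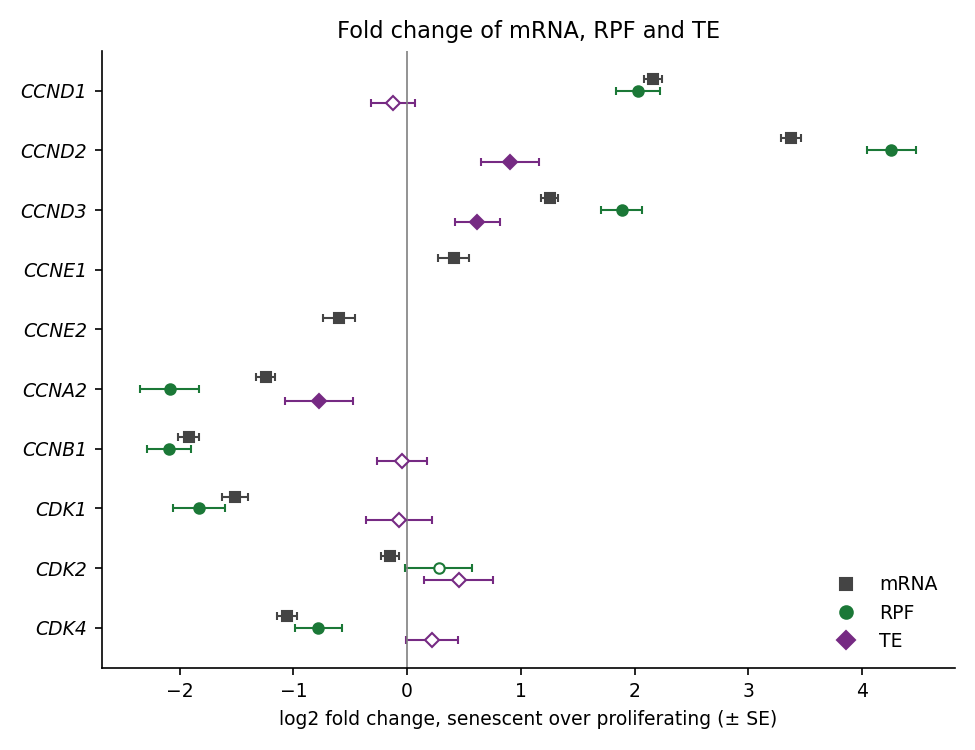
Log2 fold change of senescent over proliferating cells (horizontal axis, ± SE) for mRNA, RPF and translational efficiency (TE) of each gene tested. Filled symbols passed an adjusted p of 0.15 and open ones did not. RPF follows mRNA in sign for 7 of 8 genes, and CDK2 is the exception.

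The promoters of the members were searched for short words. RefSeq sequences (GRCh38.p14, 250 bases before to 50 after a start) matched 6 of the 10 genes with 9 starts. CCND1, CCND2 and CDK2 had no entry. CCNE2 was left out of the search, so its absence does not show that it lacks an entry or these words. Genes of the late cycle are known to carry CCAAT boxes and, near the start, a cell cycle genes homology region (CHR). Both strands were searched for CCAAT, for the usual CHR word TTTGAA and its variant form CTTGAA, and for the palindromic forms TTCGAA as well as TTTAAA, and no word printed here in capitals overlaps another. Among 35116 promoters of this length 34.6% held CCAAT, 32.2% a CHR word and 12.4% both. CCNA2, CCNB1 and both starts of CDK1 held CCAAT and a CHR word. CDK4 and the first listed start of CCND3 held none of these words, the other 2 starts of CCND3 held CCAAT alone, and CCNE1 a CHR word alone. The nearest matches upstream of a start (for CDK1 and CCND3 the last listed start) are shown with the word in capitals (ATTGG is CCAAT read on the other strand), first for the 3 genes that held both words, which fell in both layers, and then for CCNE1 and CCND3, which held 1 of them. CDK4, which also fell in both layers, held neither.
CCNA2 CCAAT, from 56 bases before the start (chr4:121823922-121823951, minus strand): gcgagcgctttcATTGGtccatttcaatag
CCNA2 CHR, from 28 bases before (chr4:121823894-121823923, minus strand): agtcgcgggataCTTGAActgcaagaacag
CCNB1 CCAAT, from 55 bases before (chr5:69167083-69167112, plus strand): gccacgaacaggCCAATaaggagggagcag
CCNB1 CHR, from 30 bases before (chr5:69167108-69167137, plus strand): agcagtgcggggTTTAAAtctgaggctagg
CDK1 CCAAT, from 46 bases before (chr10:60778420-60778449, plus strand): acgggctacccgATTGGtgaatccggggcc
CDK1 CHR, from 13 bases before (chr10:60778453-60778482, plus strand): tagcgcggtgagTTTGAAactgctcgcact
CCNE1 CHR, from 28 bases before (chr19:29811951-29811980, plus strand): gcgcgcagggatTTTAAAtgtcccgctctg
CCND3 CCAAT, from 64 bases before (chr6:41939252-41939281, minus strand): caggctgctgtgATTGGctggcagggaagc
Letters that match are not shown to be bound, and these libraries do not measure binding.

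The contrast between D-type and other cyclins was then taken as a ratio of reads within each library, which needs no scaling between libraries. In mRNA all 12 ratios of a D-type to an E, A or B cyclin were higher in every senescent library than in any proliferating one. The ratios in both layers pair the same cyclins whose changes are given above, so they are not independent of these or of each other. How often ratios of other gene pairs lie apart was not computed. The smallest difference was 0.85 on the log2 scale (CCND3 to CCNE1) and the largest 5.31 (CCND2 to CCNB1). CCND1 to CCNA2 went from 3.86 ± 0.02 to 7.27 ± 0.07 (SD, n = 3), and CCND1 to CCNE1 from 6.79 ± 0.16 to 8.55 ± 0.20. The ratio of CCND2 to CCNB1 changed sign, from -2.82 ± 0.11 to 2.49 ± 0.18, so that CCND2 had fewer reads than CCNB1 in proliferating cells and more in senescent ones.

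In RPF the 9 ratios without CCNE2, which had 0 reads in Pro 1, were likewise apart. They differed by 1.59 (CCND3 to CCNE1) to 6.05 (CCND2 to CCNB1) on the log2 scale. CCND1 to CCNB1 went from 1.78 ± 0.88 to 5.73 ± 0.21 and CCND3 to CCNB1 from -1.64 ± 0.69 to 2.13 ± 0.32. Each two-sided exact permutation test, 12 in mRNA and 9 in RPF, gave p = 0.1, the smallest that 3 against 3 libraries allow (0.1 after Benjamini-Hochberg adjustment over the pairs of a layer), so the exact test cannot reach 0.05 here. Sen 2 ratios in RPF rest on 1 or 2 reads of the second gene, and the Pro 1 ratios of CCND2 on 2.5 reads of the first. The Pro 1 ratios to CCNE1, CCND3 to CCNE1 among them, rest on 1 read of CCNE1.

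**Figure D3:**
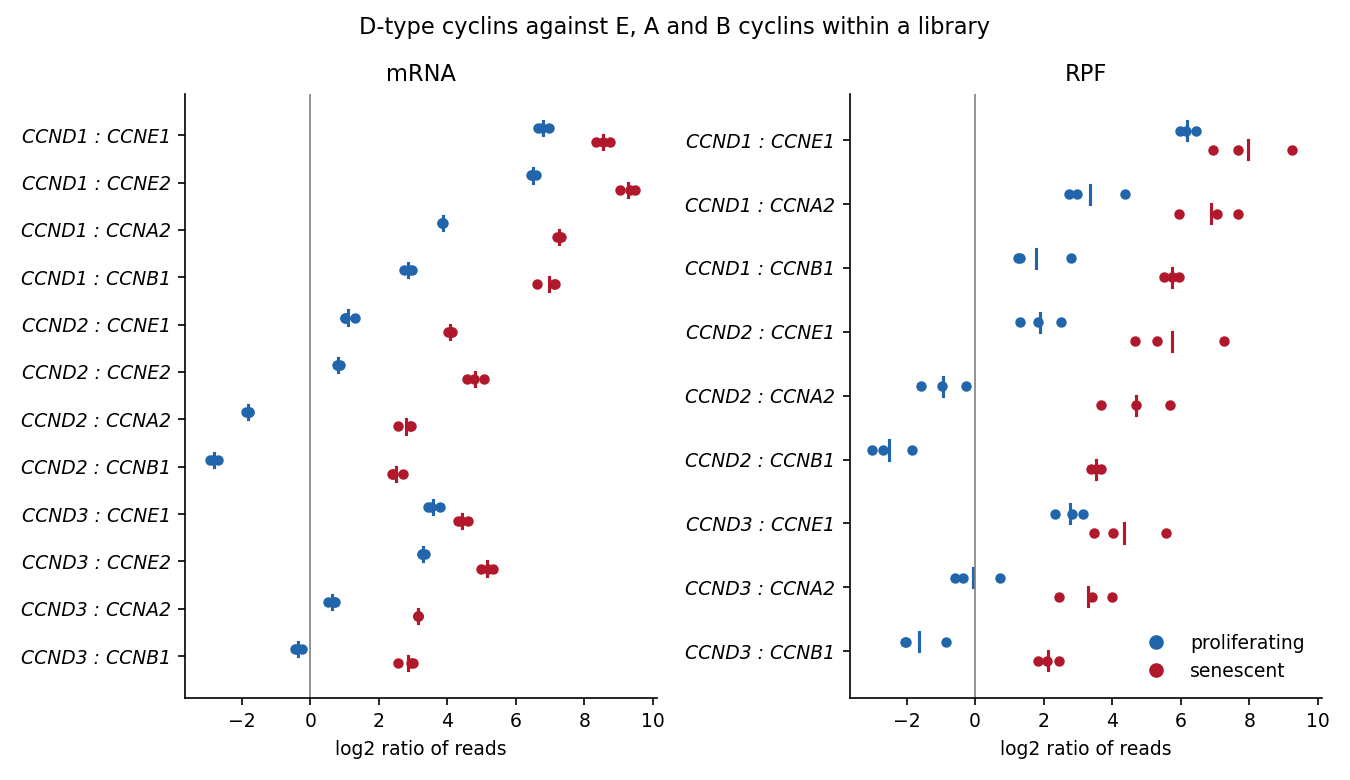
Log2 ratio of the reads of a D-type cyclin to those of an E, A or B cyclin in each library, for mRNA (left, 12 pairs) and RPF (right, 9 pairs). Each dot is 1 library and ticks are group means. In every pair all senescent libraries lie to the right of all proliferating ones.

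Per length of coding sequence, as CDS reads per kb in CPM of a library's CDS reads, genes can be set against each other. In RNA-seq of proliferating cells CCND1 led with 405 ± 7.44, followed by CDK4 (202), CCNB1 (121), CCND3 (95.1), CDK1 (58.0), CCNA2 (50.8) and CDK2 (43.1). CCNE1 (8.10), CCNE2 (7.26) and CCND2 (5.16) came last, and CCNE1 and CCNE2 were the only neighbours whose libraries overlapped. In senescent cells CCND1 had 1693 ± 205, followed by CCND3 (212), CDK4 (85.4), CCND2 (42.0), CDK2 (37.1), CCNB1 (30.9), CCNA2 (19.8), CDK1 (19.7), CCNE1 (9.59) and CCNE2 (4.98). CCND2 overlapped with CDK2, CDK2 with CCNB1 and CCNA2 with CDK1.

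Ribo-seq on the same scale placed CCND1 first with 922 ± 326 in Pro, then CCNB1 (179.7), CDK1 (126), CDK4 (106), CCND3 (84.5), CCNA2 (60.6), CCND2 (46.3), CDK2 (27.3), CCNE1 (9.48) and CCNE2 (9.06). From CCNB1 down, each gene overlapped with the next. In Sen the 3 D-type cyclins came first, with 3035 ± 497 for CCND1, 685 ± 203 for CCND2 and 251 ± 24.6 for CCND3, and none of these overlapped with the next gene. CDK4 (49.0), CDK2 (41.2), CCNB1 (39.8), CDK1 (29.5), CCNA2 (18.6), CCNE2 (9.99) and CCNE1 (9.91) followed, each overlapping with its neighbour. Summed per length, D-type cyclins outnumbered the E, A and B cyclins by 2.54- to 2.91-fold in Pro and 23.5- to 34.0-fold in Sen in RNA-seq. In Ribo-seq the range was 2.87- to 7.88-fold in Pro and 38.2- to 61.0-fold in Sen, with the 7.88-fold value in Pro 1, where 13 reads of the E, A and B cyclins were counted, and the 38.2-fold value in Sen 2, where 6 were. The D-type sum was mostly CCND1. In RNA-seq of Pro it had 405, against 95.1 for CCND3 and 5.16 for CCND2, both below CCNB1 (121).

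Translational efficiency (TE), the ratio of RPF to mRNA, was tested as the interaction of library type and state over all 12 libraries. It passed for 3 of the 8 members tested, against 9.98% of 7473 genes (6.05% higher and 3.93% lower). Higher genes made up 60.6% of the TE calls, and 46.9% with library totals without factors. CCND2 and CCND3 were higher in senescent cells and CCNA2 was lower. Lysate values overlapped between the states for all 8 members, whereas they were apart for 16.2% of tested genes. CCND2 stood at 1.33, 1.30 and 1.001 (log2 ratio of RPF to mRNA CPM, 0.5 added to counts) in Pro and 1.69, 1.30 and 2.49 in Sen, where the value of Sen 2 lay within the proliferating ones. The fit, in which deeper libraries count for more, gave a log2 fold change of 0.91 ± 0.25 (edgeR adjusted p = 0.0275). Without Sen 3 it was 0.52 (edgeR adjusted p = 0.446), and without any other 1 lysate 0.75 to 1.13.

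For CCND3 the lysate values were -0.06, -0.53 and -0.38 in Pro and 0.17, -0.11 and 0.20 in Sen (log2 fold change 0.62 ± 0.20; edgeR adjusted p = 0.0655). For CCNA2 they were 0.03, 0.50 and 0.71 in Pro and -0.06, 0.83 and -0.57 in Sen (-0.77 ± 0.30; edgeR adjusted p = 0.133), and the high value of Sen 2 stands on 2 RPF reads. CCND1 had -0.13 (95% interval -0.51 to 0.25), CCNB1 -0.04 (-0.47 to 0.39), CDK1 -0.07 (-0.64 to 0.50), CDK2 0.45 (-0.14 to 1.04) and CDK4 0.22 (-0.23 to 0.67), none of them called (edgeR adjusted p from 0.435 to 0.937). The 3 calls fell to 0 with DESeq2, where 0 members had an unadjusted p under 0.05. They also fell to 0 by edgeR without any 1 of the lysates Pro 2, Pro 3 and Sen 3 (2 or 3 members with an unadjusted p under 0.05), and to 1 (CCND2) without Sen 1. With CDS reads alone in RNA-seq CCNA2 was no longer called (-0.74; edgeR adjusted p = 0.153), while CCND2 and CCND3 were. All 3 stood in the 4 deeper lysates (0.99, 0.64 and -0.85; edgeR adjusted p = 0.042, 0.035 and 0.0808).

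**Figure D4:**
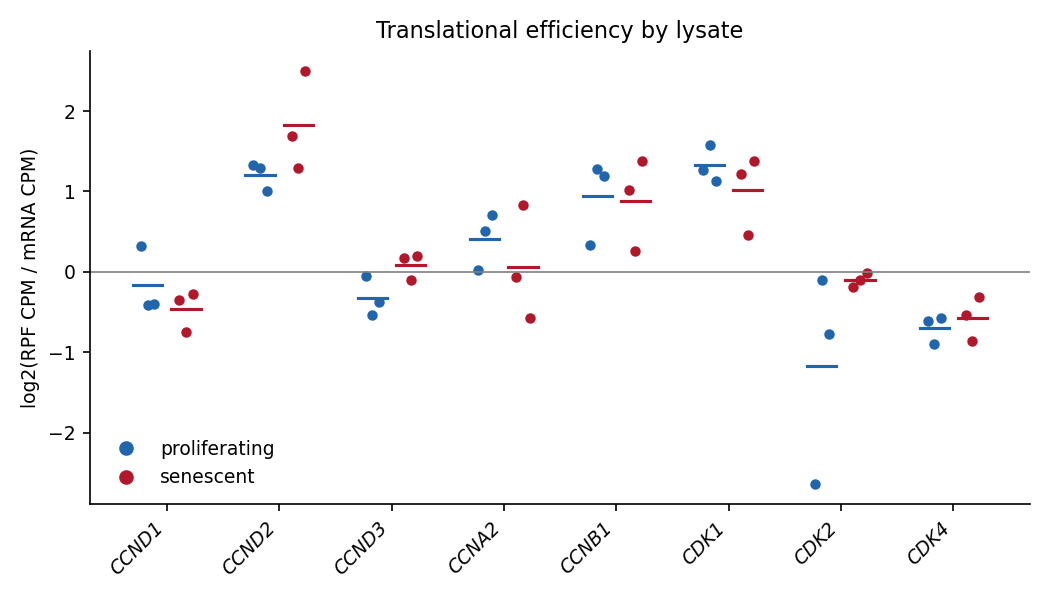
TE of the 8 members tested, as log2 ratio of RPF to mRNA CPM with 0.5 added to each count, by lysate. Each dot is 1 lysate and bars are group means. The states overlap for every gene, and the lowest point of CDK2 is Pro 1, which had 0 RPF reads.

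The share of a gene's RNA-seq reads that fall in its 3′ UTR is a readout that the choice of members did not use. In the test of 3′ UTR against CDS reads by state 1 of the 10 members passed, against 2.6% of 9397 genes (1.73% higher and 0.862% lower in Sen). Higher genes made up 66.8% of these calls, and 32.1% with library totals without factors, so the balance over all genes turned with the scaling. For CDK4 the 3′ UTR held 12.2%, 14.0% and 10.2% of reads in Pro and 20.3%, 18.9% and 19.9% in Sen, with the states apart. By the ratio of 3′ UTR to CDS reads 2 of the 10 members had states apart, CDK4 and CCNB1, which was not called. How often states lay apart over all genes was not computed for this readout. For CDK4 the log2 change of the ratio was 0.75 ± 0.15 (edgeR adjusted p = 0.0161), and 0.62 with library totals without factors (edgeR adjusted p = 0.0519). TSPAN31, on the opposite strand, overlaps 2493 bases of CDK4, and the CDK4 3′ UTR values include fractions of a read. Its own 3′ UTR had 596, 786 and 602 RNA-seq reads in Pro and 392, 579.8 and 429 in Sen, and its part in the CDK4 value was not tested.

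Among the other 9 members the ratio differed by -0.36 (CCNE2) to 0.47 (CCNB1) on the log2 scale, with edgeR adjusted p of at least 0.789. The genes differed widely from each other in this share, from 1.69% (CCNB1) to 77.5% (CCND2) in Pro. CCND1 had 65.9% in Pro and 67.1% in Sen, so that most RNA-seq reads of cyclin D1 and D2 lie outside the coding sequence in both states.

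**Figure D5:**
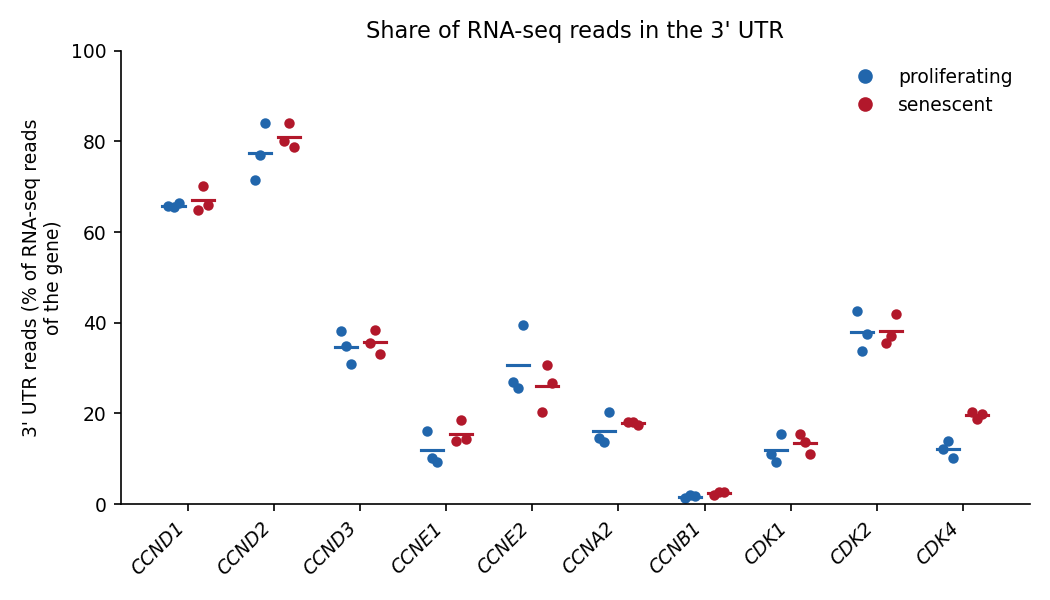
Percent of each gene's RNA-seq reads (5′ UTR, CDS and 3′ UTR) that fall in the 3′ UTR, by library, with group means as bars. CDK4 is the gene whose senescent libraries (18.9% to 20.3%) passed the test against the proliferating ones (10.2% to 14.0%).

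The other genes of the cyclin and CDK machinery were counted by list, and no list was tested as a whole. Over all genes tested in mRNA 36.6% were higher and 37% lower, with a median of -0.01. Of 5 other cell cycle cyclins and CDKs, 3 were tested in mRNA, and 1 rose (CDK6, above) and 2 fell. CCNB2, the second B-type cyclin, fell by 1.93 on the log2 scale in mRNA and by 1.73 in RPF. Cyclins and CDKs of transcription, which act on RNA polymerase II and splicing, had a median of -0.18, with 1 of 16 higher (CDK7, 0.24, the CDK-activating kinase), 10 lower (lowest CCNL1, -0.82) and 5 not called. Among 14 tested cyclins and CDKs of other functions, 2 rose (CDK5 most, 0.63), 6 fell (CCNI most, -1.03) and 6 were not called.

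Among regulators of CDK activity, the 8 phosphatases, inhibitory kinases and CKS subunits were all lower in mRNA (median -1.22), from WEE1 (-0.71), which restrains CDK1, to CDC25C (-1.92), which activates it. CDK inhibitors and the RB family had 4 higher, 4 lower and 2 not called of 10 (median 0.01), from CDKN1A (1.60), the p21 inhibitor, to CDKN2C (-1.93), the p18 inhibitor of CDK4 and CDK6. Of 17 E2F, DREAM and FOXM1 genes 3 rose (LIN37 most, 0.50), 10 fell and 4 were not called (median -0.33). FOXM1, a transcription factor of late cycle genes, fell furthest (-1.90). Of 10 genes of cyclin degradation 1 rose (FBXW7, 0.21, which targets cyclin E), 7 fell and 2 were not called (median -0.48). CDC20, the anaphase activator that leads cyclin B1 to destruction, fell by 2.32.

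In RPF, where 27.5% of all genes tested were higher and 26.9% lower, the same lists gave 1 higher and 2 lower of 3 other cell cycle genes, 1 and 4 of 13 transcriptional genes, 1 and 2 of 6 with other functions, and 0 and 4 of 6 phosphatases, kinases and CKS subunits. They gave 3 and 1 of 6 inhibitors and RB genes, 2 and 3 of 6 E2F, DREAM and FOXM1 genes and 0 and 4 of 8 degradation genes.

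By Pearson r of log2 mRNA CPM over the 6 RNA-seq libraries, CEMIP2 (0.9999), JCAD (0.9997) and ARHGAP22 (0.9995) had the patterns most like CCND1, out of 9418 genes averaging 10 CPM or more. For CCNB1 they were BST1 (0.9992), PRC1 (0.9989), a mitotic spindle protein, and TYMS (0.9985), which makes thymidylate for DNA synthesis. These values describe libraries that share their state, since 514 genes had r above 0.99 with CCND1 and 250 with CCNB1.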

How the data were processed

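The deposited tables list expected counts by gene symbol and library, unscaled, which the authors split into 5′ UTR, CDS, 3′ UTR and non-coding classes. Per the submitters' processing notes cutadapt 1.18, Bowtie 1.0.1, SAMtools 1.8 and DESeq2 1.22.2 were used, and the genome build, annotation and strand rule are not given in the sources used here. Groups and replicate numbers came from the sample titles. The anota2seq step of the published methods was not run.

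The planned tests assumed plain counts, but some values hold fractions of a read, so regions of a gene were summed and the sum rounded, and symbols with at least 1 CDS read in some library (16451) were kept. Tests were two-sided quasi-likelihood tests of edgeR 4.0.16 (limma 3.58.1, R 4.3.3) after filterByExpr, with TMM factors within each library type and Benjamini-Hochberg adjustment over all genes tested. The threshold of 0.15 is the false discovery rate of the published methods. The TE test held the lysate as a block and the 3′ UTR to CDS test the library. Scripts were tested on simulated counts. DESeq2 1.42.0, other filters and factors, and leaving out each replicate were the alternatives. Wilson intervals (95%) and the floor of 3 counts cover counting error alone, as PCR copies are not separate molecules.

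The members are a fixed list of symbols. Named beyond them were CDK6, the called gene with the highest and with the lowest mRNA fold change in each of 7 pathway lists, and the 3 genes with the pattern most like CCND1 and CCNB1. Members, lists and tests were chosen with earlier results of these data known. Overlapping neighbours and promoter words were added after the values were seen.

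Same-numbered proliferating and senescent libraries did not deviate together (correlation across genes from -0.07 to 0.08 for mRNA and 0.01 to 0.03 for RPF), so the numbers were not taken to pair the states. RPF and mRNA libraries of the same lysate gave -0.05 to 0.06, so this check did not show the lysate pairing either. The lysate pairing used in the TE test was taken from the protocol. No library was a duplicate of another, as replicates differed beyond sampling noise (ratio of chi-square to its degrees of freedom of at least 1.32).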

Additional observations from a re-analysis of the deposited data

Results flagged for a closer look

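Ribo-seq reads in the 3′ UTR entered no comparison of the report apart from an alternative RPF sum over all mRNA regions. For CCND2 their share of its reads in mRNA regions was higher in every senescent library than in any proliferating one. It was 4.89% (45 reads) in Sen 1, 38.6% (16 reads) in Sen 2 and 4.33% (21 reads; Wilson 95% interval 2.85 to 6.53) in Sen 3. In proliferating cells 0 of 2.5, 1 of 29.5 and 0 of 57.5 reads fell there, and the upper Wilson bounds of 65.8%, 16.7% and 6.21% show how little these counts resolve. Over all genes the 3′ UTR share was 12.4%, 1.94% and 1.40% in Pro and 3.51%, 14.8% and 4.90% in Sen. Among the deeper libraries the share of a whole library was thus also higher in Sen, whereas Pro 1 lay within the senescent values. The part of the library share in the CCND2 value was not tested. CCND1 had 7.41%, 1.56% and 1.98% in Pro and 6.26%, 35.5% and 4.66% in Sen, where Pro 1 (5 of 67.5 reads) overlaps the senescent values. Groups of 3 libraries were too small to be examined for single outlying samples.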

How the results depend on the processing

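All mRNA calls stood in every alternative that tested the gene except that of CDK2, which was lost in 6 of 14 and at a threshold of 0.05. The 7 RPF calls stood in all but DESeq2, where CDK4 was lost, and under the demand for 10 counts in every library, where 1 member could be tested and 1 was called. The number of TE calls (3) was 0 with DESeq2, 0 with analysis of partial variance (3 at an unadjusted p under 0.05, against 0 with DESeq2), 2 with CDS reads alone in RNA-seq, where CCNA2 was lost, 1 when a single read sufficed for a gene to be tested, 0 when every library had to hold 10 counts (1 tested, 0 at an unadjusted p under 0.05), 1 at a threshold of 0.05, and 0 to 3 when 1 lysate was left out. Signs turned for values that were not called. TE of CCNB1 was 0.0026 with DESeq2 and, leaving out 1 lysate, -0.20 to 0.080, TE of CDK1 then -0.27 to 0.089 and TE of CCND1 -0.28 to 0.010, with 0.12 in the 4 deeper lysates. RPF of CDK2 was -0.026 to 0.56 without 1 library. The cause was not tested. With the replicate block, which the labels do not ask for, 10 mRNA and 7 RPF calls remained among the members, while calls over all genes went from 9413 to 9425 in mRNA and from 4088 to 2336 in RPF. TE without the lysate block gave 3 member calls and 1358 over all genes, against 746 with it. DESeq2 called 1164 genes for RPF and 28 for TE. Library totals without factors moved the median of all genes to -0.11 in mRNA and -0.14 in RPF. Depth limits the RPF of CCNE1 and CCNE2 and the values of the 2 shallow libraries.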

Other observations

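Among the genes named from the lists, CDK5 and LIN37, picked out after their values were seen, rose in both layers, with the states apart. So did CDK6 (above) and CDKN1A, whose RPF log2 fold change was 1.26 ± 0.18 (edgeR adjusted p = 7.89e-09). States were apart for 67.8% of tested genes in mRNA and 32.5% in RPF. CDK5, a kinase best known from neurons, had 17.3 ± 0.43 CPM of mRNA in Pro and 26.6 ± 2.60 CPM in Sen, and its RPF log2 fold change was 1.31 ± 0.32 (edgeR adjusted p = 0.000695). LIN37, a subunit of the DREAM complex that represses late cycle genes, had 9.86 ± 0.73 and 14.1 ± 1.73 CPM of mRNA and an RPF log2 fold change of 1.32 ± 0.39 (edgeR adjusted p = 0.00481), with 0 RPF reads in Pro 1. Its RPF in Pro 2 (2.88 CPM) lay below the floor of that library (4.38 CPM on unscaled totals). For CDK5 the RPF of Pro 1 (16.8 CPM) rests on 1 read. In Sen 2, with a floor of 54.8 CPM, CDK5 had 68.2 CPM and LIN37 51.2 CPM.

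In the 5′ UTR of CDK1, the Ribo-seq libraries held 2, 6 and 10 reads in Pro and 2, 0 and 0 in Sen, of 8, 89 and 190 and of 46, 1 and 20 reads in its mRNA regions. For CDK6 they held 0, 12 and 13 reads there in Pro and 39, 2 and 7 in Sen. The CDK1 share was at least 5.26% in Pro and at most 4.35% in Sen, where 2 of the 3 values were 0 of 1 and 0 of 20 reads, with overlapping Wilson intervals (2.88 to 9.42% in Pro 3, 1.20 to 14.5% in Sen 1). Over all genes the 5′ UTR share was 10.2%, 3.70% and 2.78% in Pro and 4.89%, 44.7% and 13.8% in Sen. The CDK6 share overlapped between the states.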
